A study of Mus musculus with 6 samples.

Results

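MHC class I antigen presentation was followed through 10 genes that cover its main steps: the heavy chains H2-K1 and H2-D1, their light chain B2m, the immunoproteasome subunits Psmb8 and Psmb9, the peptide transporter subunits Tap1 and Tap2, the loading factor Tapbp, the trimming peptidase Erap1 and the transcriptional activator Nlrc5. The genes were chosen by symbol, with no expression threshold, and all 10 have a row among the 24129 names of the normalized count table. They were compared between T1 and T2, a pair of tumor cell populations derived from 4T1GFP, a GFP-tagged line of the 4T1 mammary carcinoma of BALB/c mice. Both populations came from a resected orthotopic primary tumor, emerged in a culture of cells sorted as cancer-associated fibroblasts, and were sorted again by GFP. T1 cells, labelled 4T1A, were GFP low, adherent and epithelial in shape, and T2 cells, labelled 4T1NA, were GFP high, round and loosely attached. Each population was represented by 3 poly(A) RNA libraries from cells kept in DMEM/F-12 with fetal bovine serum, and neither had received a drug or a cytokine according to the sources used here. The study calls its replicates independent and its experiments biologically replicated, but the sources used here do not say which cultures or sorts the libraries came from, or whether either population was 1 clone, so p-values measure the spread between these libraries.

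A class I molecule carries peptides from inside the cell to its surface, where CD8+ T cells inspect them. Proteasomes cut proteins into peptides, the TAP transporter moves these into the endoplasmic reticulum, Erap1 trims them, tapasin and other chaperones help load them onto a heavy chain bound to beta 2-microglobulin, and the finished complex leaves for the surface. Interferons raise most of these genes together, partly through Nlrc5 and Irf1, and tumor cells that carry little class I are a well-known target of natural killer cells. Surface protein was not measured in these libraries.

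The libraries held between 18133227 and 20839686 reads assigned to genes, recovered from the deposited values, in which 1 read was worth between 0.928 and 1.06 normalized counts. Genes whose average over the 6 libraries reached 10 normalized counts were tested with limma on log2(normalized count + 1), a scale that understates the change of low genes. A gene was called at a Benjamini-Hochberg adjusted p under 0.01, over 11514 genes, and a stricter rule also asked for a log2 fold change beyond 2 in either direction. The populations lay far apart: 49.5% of the genes tested were called, 25.1% higher and 24.4% lower in T1, the stricter rule was met by 4.17% higher and 4.2% lower, and in 68.1% the 3 values of one population did not overlap those of the other. The median log2 difference over all genes tested was -0.01. Of 7 tested mammary epithelial markers, 5 were higher in T1, all of them past the stricter rule, with a median log2 difference over the 7 of 4.98. Of these 7, 2 passed the level filter through T1 alone. Of the 5 with a mean of at least 10 in both populations, 3 were higher. Epcam (log2 fold change 6.46), Cdh1 (4.98), Krt14 (10.36), Krt19 (10.01) and Elf3 (2.07) were far lower in T2, and Krt8 and Krt18 were not called. The summed level of the list was 67380 to 73990 normalized counts in T1 and 37543 to 43485 in T2. Of 20 leukocyte markers, 8 had no read in any library, among them Cd3e, Cd8a and Adgre1, and the summed level was 388 to 473 in T1 and 177 to 211 in T2, of which Cd14 gave 319 to 375 and 69.5 to 102. Fibroblast markers summed to 232 to 246 in T1 and 997 to 1298 in T2, most of it Pdgfra (log2 fold change -2.45). Col1a1 was higher in T1 (4.17) but passed the filter through T1 alone, and Col3a1, Lum, Pdgfrb and Thy1 were at 0. The 9 endothelial markers reached at most 16.9. The part of these markers in the differences below was not tested, and fewer cells of a type and less RNA per cell cannot be told apart in bulk libraries.

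The pathway did not move as a block. Of the 9 members that passed the level filter, 3 were higher in T1 (Tap2, Psmb8 and Tapbp), 2 were lower (B2m and Nlrc5) and 4 were not called (H2-K1, H2-D1, Tap1 and Erap1), and Psmb9 was too low to be tested. Tap2 and Psmb8 also passed the stricter rule. The share of tested members called, 5 of 9, stood beside the 49.5% of all genes tested, and 6 of the 9 had groups that did not overlap, beside 68.1% of all genes. The median log2 difference of the 9 was 0.27.

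**Figure D1:**
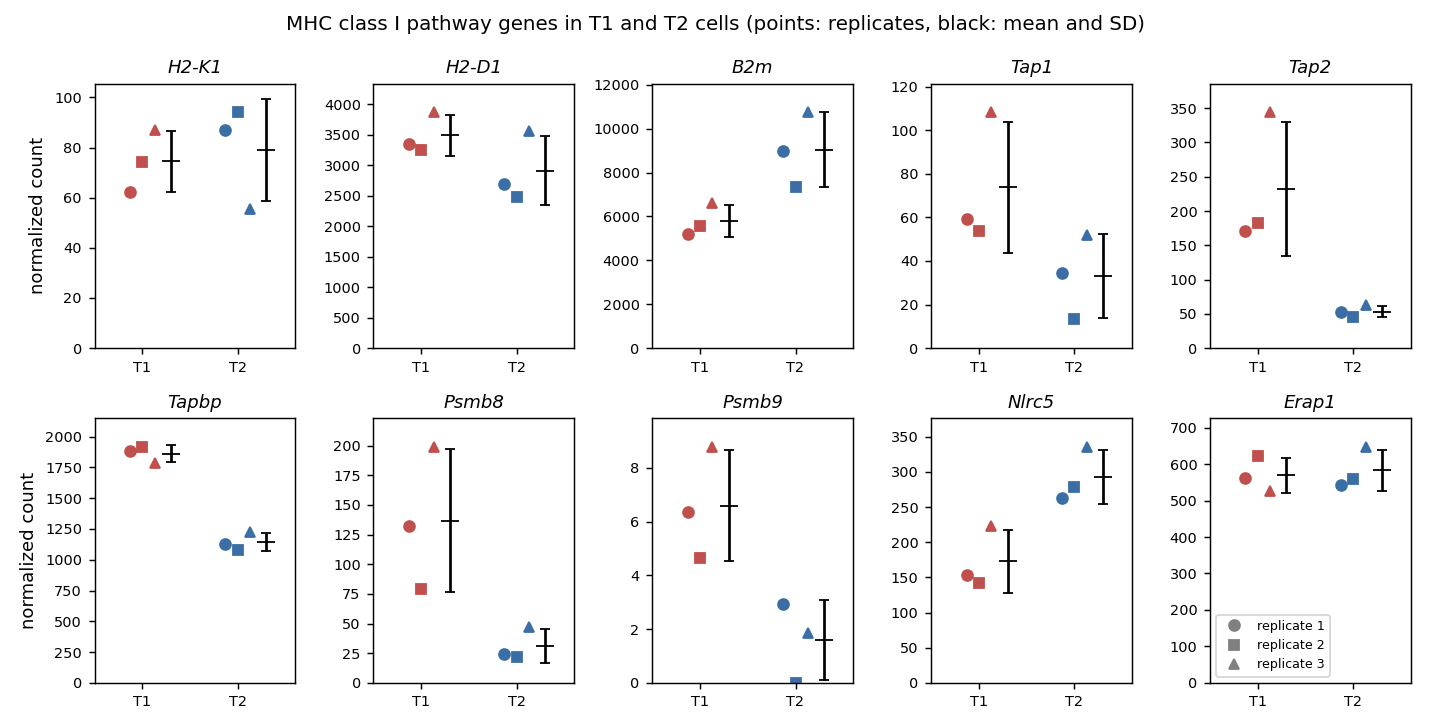
Normalized counts of the 10 genes in the 3 T1 libraries (red) and the 3 T2 libraries (blue), each panel on its own linear axis from 0, with replicate number by marker shape and the mean and SD in black. Tap1, Tap2, Tapbp, Psmb8 and Psmb9 have all T1 points above all T2 points, B2m and Nlrc5 the reverse, and H2-K1, H2-D1 and Erap1 overlap.

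H2-D1 (ENSMUSG00000073411, chr17:35262730-35267499, plus strand of GRCm38) encodes the D heavy chain, and its row held the higher counts of the pair here. Its normalized counts were 3341, 3248 and 3871 in T1 and 2693, 2481 and 3557 in T2. The highest T2 library lay inside the T1 range and the other two T2 libraries lay below it. The log2 fold change was 0.27 (SE 0.13, 95% interval -0.01 to 0.56, adjusted p = 0.0869 by limma), which is no call, but without T2 replicate 3 the value was 0.43 and passed (adjusted p = 0.00662). H2-K1 (ENSMUSG00000061232, chr17:33996017-34000347, minus strand), the K heavy chain, had 62.4, 74.4 and 86.9 normalized counts in T1 and 87.1, 94.2 and 55.7 in T2. The T2 libraries held both its highest and its lowest value, and the interval of the log2 difference ran from -0.60 to 0.48 around -0.06 (adjusted p = 0.847), so a change of either sign within that range was not detectable with these libraries.

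B2m (ENSMUSG00000060802, chr2:122147686-122153083, plus strand) encodes beta 2-microglobulin, without which class I heavy chains do not reach the surface in a stable form. It had 5191, 5580 and 6624 normalized counts in T1 and 8994, 7343 and 10762 in T2. Every T2 library was above every T1 library, with means of 5798 ± 741 (SD, n = 3) in T1 and 9033 ± 1710 in T2. The log2 fold change was -0.63 (SE 0.14, adjusted p = 0.00221), and the T2 mean was 1.56 times the T1 mean. The call was near its threshold: it was lost without T1 replicate 1 (adjusted p = 0.011), T2 replicate 1 (0.0113) or T2 replicate 3 (0.0104), although the fold change stayed between -0.77 and -0.49 whichever library was left out.

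Relative to the light chain, H2-D1 was the higher in T1. Expressed per kilobase of exonic length, H2-D1 stood at 21.5%, 19.4% and 19.5% of B2m in the T1 libraries and at 9.98%, 11.3% and 11.02% in the T2 libraries, and within each population the values lay close together. The log2 ratio differed by 0.90, and the exact two-sided permutation test gave p = 0.1, the smallest that 3 against 3 libraries allow. The ratio of H2-K1 to B2m overlapped between the populations, at 0.375% ± 0.0205 in T1 and 0.270% ± 0.113 in T2 (SD, n = 3, exact permutation p = 0.2), and so did H2-K1 to H2-D1 (exact permutation p = 0.5). Levels compared between these genes carry a limit. The reads come from BALB/c cells, and the mm10 reference is of C57BL/6J, a strain with another H2 haplotype, so heavy chain reads may align unequally from gene to gene, which was not tested. H2-L, another listed heavy chain, had no row of its own, so any reads of it may be counted under other heavy chains such as H2-D1. This was not tested. Of all 75-base stretches of the transcripts annotated in that reference, 3.1% in H2-K1 and 5.4% in H2-D1 also occur in another gene. These were mostly H2-Q10 and H2-Q1, while B2m had none. Such shares cannot show sequence that only BALB/c carries.

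The sequences just upstream of the heavy and light chain genes are shown because these 3 genes are classically induced together, yet here B2m was lower in T1 and the heavy chains were not called. The 250 bases before each RefSeq gene start (GRCm38.p6, gene strand, 5′ to 3′) lie at chr17:34000348-34000597 for H2-K1, chr17:35262844-35263093 for H2-D1 and chr2:122147437-122147686 for B2m. Capitals mark matches, on either strand, to any of 6 searched motifs: the interferon response element spellings TTCNNTTTC and TTTCNNTTC, the NF-kB spelling GGGANTNCC, CCAAT, the cyclic AMP response element core TGACG, and the gamma-activated spelling TTCNNNGAA.
H2-K1: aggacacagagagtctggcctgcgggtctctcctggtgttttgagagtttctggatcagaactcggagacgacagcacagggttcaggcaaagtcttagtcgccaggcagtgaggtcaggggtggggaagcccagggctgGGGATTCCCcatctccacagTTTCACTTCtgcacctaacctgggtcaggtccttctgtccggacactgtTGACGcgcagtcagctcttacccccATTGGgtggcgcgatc
H2-D1: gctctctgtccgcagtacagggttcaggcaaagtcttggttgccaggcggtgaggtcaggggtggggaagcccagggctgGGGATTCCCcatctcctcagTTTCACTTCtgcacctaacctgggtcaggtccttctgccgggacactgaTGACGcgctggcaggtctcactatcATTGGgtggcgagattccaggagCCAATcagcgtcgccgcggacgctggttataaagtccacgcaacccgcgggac
B2m: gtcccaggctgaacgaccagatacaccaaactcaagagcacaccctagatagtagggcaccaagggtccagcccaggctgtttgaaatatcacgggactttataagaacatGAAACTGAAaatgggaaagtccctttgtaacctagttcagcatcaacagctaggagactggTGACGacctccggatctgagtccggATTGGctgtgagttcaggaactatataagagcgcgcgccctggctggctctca

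H2-K1 and H2-D1 shared the same arrangement, with GGGATTCCC at positions -110 to -102 and -170 to -162 from the gene start, TTTCACTTC next, at -90 to -82 and -150 to -142, and then TGACG and ATTGG, the reverse of CCAAT. The longest run common to both windows was 47 bases and contained GGGATTCCC. B2m had no match to the NF-kB spelling and carried GAAACTGAA, a reverse match to TTCNNTTTC, at -139 to -131, followed by TGACG and ATTGG. The missing match concerns GGGANTNCC only. Other NF-kB spellings were not searched, so B2m cannot be said to lack an NF-kB site. Its window holds gggaaagtccc shortly after GAAACTGAA, a stretch that GGGANTNCC does not match on either strand. Among 27025 promoter windows of this length, TTCNNTTTC occurred in 7.16%, TTTCNNTTC in 6.34%, GGGANTNCC in 3.34%, TGACG in 17.9% and CCAAT in 34.5%. TTTCNNTTC was added after the H2-K1 window had been read. A match describes letters and is not evidence of binding. All windows are C57BL/6J reference sequence. The upstream sequence of the BALB/c cells was not read and may differ, so the positions and the shared run hold for the reference only.

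Psmb8 and Psmb9 encode the immunoproteasome subunits LMP7 and LMP2, which replace Psmb5 and Psmb6 in the proteasome core and favour peptide ends that class I can hold. Psmb8 (ENSMUSG00000024338, chr17:34197721-34201454, plus strand) had 132, 79.1 and 199 normalized counts in T1 and 24.5, 21.5 and 47.3 in T2. The lowest T1 library stood above the highest T2 library, although the T1 libraries spread widely. The mean was 4.40 times as high in T1, with a log2 fold change of 2.09 (SE 0.37, 95% interval 1.26 to 2.92, adjusted p = 0.000674). Psmb9 (ENSMUSG00000096727, chr17:34181987-34187764, minus strand) was barely read, at 6.35, 4.65 and 8.78 normalized counts in T1 and 2.94, 0 and 1.86 in T2. The T1 libraries were all above the T2 libraries, and the ratio of pooled reads, scaled for depth, was 4.04 with an exact interval of 1.47 to 13.8 that covers counting error only. Psmb10, the remaining immunoproteasome subunit, takes the place of Psmb7. It was not among the 10 members and had 820, 857 and 820 normalized counts in T1 and 460, 422 and 418 in T2. Its libraries agreed closely within each population, and its log2 fold change was 0.94 (SE 0.10, adjusted p = 1.46e-05).

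The immune subunits were set against the constitutive subunits they replace, which were themselves partly higher in T1. Of 14 genes of the constitutive proteasome core, 8 rose and 1, Psmb4, fell at -0.38, beside 25.1% and 24.4% of all genes tested. The median log2 difference was 0.32. The count that rose went down to 4 or 5 when a single library other than T1 replicate 3 was left out. Psmb5 was higher in T1 at 0.78 (adjusted p = 1.44e-05), Psmb2 at 0.57 and Psmb7 at 0.36, while Psmb6 was not called at 0.15 (adjusted p = 0.101). Per kilobase, Psmb8 reached 2.33%, 1.34% and 3.47% of Psmb5 in T1 and 0.722%, 0.623% and 1.46% in T2. One T1 library lay below the highest T2 library, so this ratio overlapped (exact permutation p = 0.2). Psmb10 stood at 30.05% ± 0.215 of Psmb7 in T1 and 20.1% ± 0.241 in T2 (SD, n = 3), without overlap and with little spread (exact permutation p = 0.1). Psmb9 was at most 0.135% of Psmb6 in any library. In both populations the constitutive subunits were therefore the main ones by this measure. The list of Psmb10, activators and Pomp had 6 tested genes, 2 higher in T1 and 1 lower, beside 25.1% and 24.4% of all genes. Of the proteasome activators, Psme3, a regulator found mainly in the nucleus, was higher in T1 at 0.72 (adjusted p = 9.19e-05). Psme1 (0.40), Psme2 (0.43) and Psme4 (0.20) were not called. Pomp, the assembly factor, was lower at -0.32 (adjusted p = 0.00568), a call lost without T1 replicate 2, T1 replicate 3, T2 replicate 1 or T2 replicate 3.

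**Figure D2:**
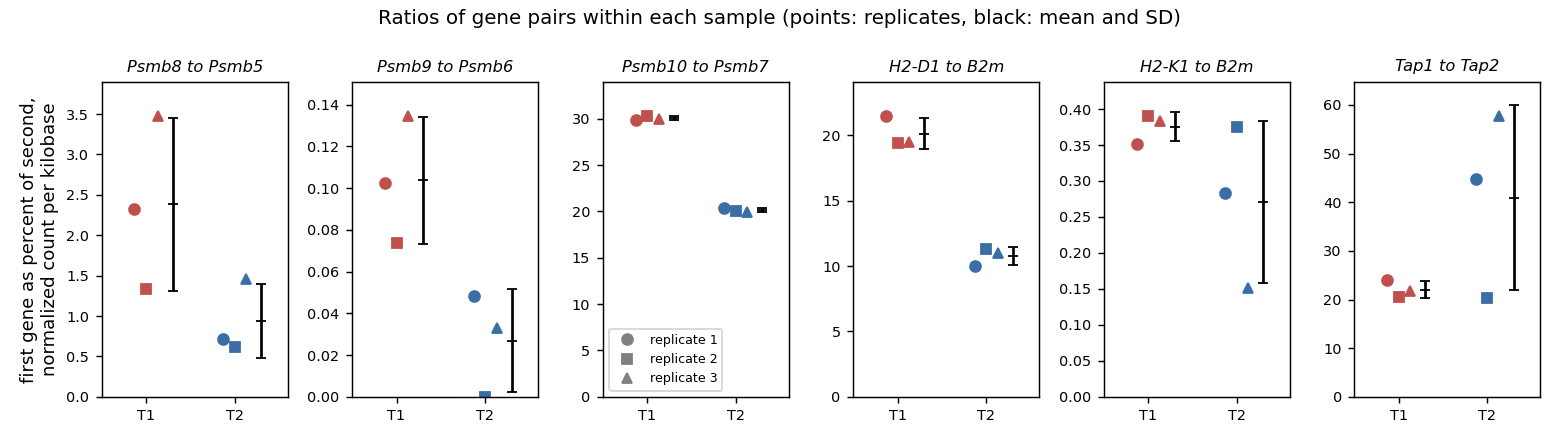
Level of one gene as a percentage of another within the same library, both as normalized counts per kilobase of exonic length, for 6 pairs, with T1 in red, T2 in blue, replicate number by marker shape, the mean and SD in black and each linear axis from 0. Psmb10 to Psmb7 and H2-D1 to B2m separate the populations with little spread, at 30.05% against 20.1% and at 20.1% against 10.8%, while Psmb8 to Psmb5, H2-K1 to B2m and Tap1 to Tap2 overlap.

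Tap1 and Tap2 form the transporter that carries peptides into the endoplasmic reticulum, and each needs the other. Tap2 (ENSMUSG00000024339, chr17:34203527-34216321, plus strand) had 170, 182 and 345 normalized counts in T1 and 52.9, 45.0 and 62.2 in T2. All T1 libraries were well above all T2 libraries, and the mean was 4.35 times as high (log2 fold change 2.04, SE 0.27, 95% interval 1.44 to 2.63, adjusted p = 8.6e-05). Tap1 (ENSMUSG00000037321, chr17:34187553-34197225, plus strand) had 59.3, 53.9 and 108 normalized counts in T1 and 34.3, 13.3 and 52.0 in T2. The populations did not overlap, but the highest T2 library came close to the lowest T1 library, and the log2 fold change of 1.25 was not called (SE 0.45, 95% interval 0.25 to 2.26, adjusted p = 0.0330). Tap1 stood at 22.1% ± 1.82 of Tap2 per kilobase in T1 and at 41.0% ± 18.9 in T2, and the ratios overlapped (exact permutation p = 0.3). The calls of Tap2 and Psmb8 at an adjusted p under 0.01 held in all 18 settings, whereas their place past a log2 fold change of 2 did not: both were below it without T1 replicate 3 (1.72 and 1.77) and without T2 replicate 2 (1.92 and 1.88), and Psmb8 was at 1.97 without T2 replicate 1.

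Tap1 and Psmb9 are read in opposite directions from one stretch of DNA, and both had T1 libraries above T2 libraries, so the sequence between their RefSeq starts is shown. It spans 225 bases at chr17:34187331-34187555 (GRCm38.p6) and is printed on the Tap1 strand, from the Psmb9 side to the Tap1 side, with motif matches in capitals.
Tap1 and Psmb9: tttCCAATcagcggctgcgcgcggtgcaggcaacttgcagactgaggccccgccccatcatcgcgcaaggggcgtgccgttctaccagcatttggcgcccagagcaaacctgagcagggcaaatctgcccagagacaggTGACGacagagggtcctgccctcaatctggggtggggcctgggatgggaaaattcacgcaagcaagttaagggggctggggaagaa

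The stretch held 1 CCAAT, 222 bases before the Tap1 start and 4 from the Psmb9 start, and 1 TGACG, 86 bases before the Tap1 start. Neither interferon response spelling, nor the NF-kB or gamma-activated spelling, was found in it. This stretch too is reference sequence and was not read in the BALB/c cells. Of the 8 members with a RefSeq window, 6 had a CCAAT match and 5 a TGACG match, beside 34.5% and 17.9% of all windows. Tap1 and Psmb9 are both counted in each, through the same CCAAT and the same TGACG. TTCNNTTTC was matched in 2 (B2m and Erap1), and TTTCNNTTC and GGGANTNCC in 2 each (both times H2-K1 and H2-D1). Psmb8 was the 1 member with the gamma-activated spelling, as TTCCCAGAA at -97 to -89, a spelling found in 7.18% of all windows. Tap2 and Nlrc5 had no entry.

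Tapbp (ENSMUSG00000024308, chr17:33915899-33929292, plus strand) encodes tapasin, which holds empty class I molecules at the transporter until a peptide fits. It had 1887, 1918 and 1783 normalized counts in T1 and 1131, 1080 and 1227 in T2, and the libraries of each population lay close together with a wide gap between the populations. The log2 fold change was 0.70 (SE 0.08, adjusted p = 4.17e-05), a ratio of means of 1.63, and it held in all 18 settings. The annotated span of Tapbp, introns included, overlaps that of Zbtb22 over 3422 bases on the same strand, and Zbtb22 had 866 to 1285 normalized counts. Tapbpl, a tapasin relative that edits peptides, was also higher in T1 at 1.11 (adjusted p = 0.000254). The other loading chaperones went the opposite way or were not called. Of 8 tested, Tapbpl was the 1 that was higher in T1 (3 were higher without T1 replicate 3). Beside 25.1% higher and 24.4% lower over all genes tested, 4 of the 8 were lower. The largest of these was Uggt1, the glycoprotein folding sensor, with 3875, 4114 and 4125 normalized counts in T1 and 12816, 12899 and 13938 in T2 (log2 fold change -1.71, adjusted p = 2.68e-08). The glucosidase II subunits Ganab and Prkcsh, at -0.44 and -0.47, and the disulfide isomerase Pdia3, at -0.38, were lower by less.

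Erap1 (ENSMUSG00000021583, chr13:74639568-74693201, plus strand), which trims peptides to the length class I takes, had 563, 621 and 526 normalized counts in T1 and 542, 559 and 648 in T2. The populations overlapped, and the interval of the log2 difference was narrow, from -0.28 to 0.22 (adjusted p = 0.824). Over all genes tested, 25.1% were higher in T1 and 24.4% lower. Of 11 tested genes of other peptidases and of peptide supply, 5 were higher in T1 and 1 was lower, with a median of 0.26. The cytosolic peptidases Ide (0.95) and Thop1 (0.91) and the translocon subunit Sec61b (0.74) were among those that rose, and the endosomal aminopeptidase Lnpep fell at -0.90 (adjusted p = 0.000513).

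Nlrc5 (ENSMUSG00000074151, chr8:94434356-94527272, plus strand), the transactivator of class I promoters, was lower in T1. Its normalized counts were 153, 141 and 224 in T1 and 263, 278 and 336 in T2, so that no T1 library reached the lowest T2 library. The log2 fold change was -0.78 (SE 0.19, 95% interval -1.20 to -0.36, adjusted p = 0.00466), and the T2 mean was 1.69 times the T1 mean. The call was lost when any library but T1 replicate 3 was left out, with adjusted p up to 0.0267, while the fold change stayed between -0.98 and -0.65. Among the members, the activator therefore differed from Tap2, Psmb8 and Tapbp in direction and shared its direction with B2m.

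**Figure D3:**
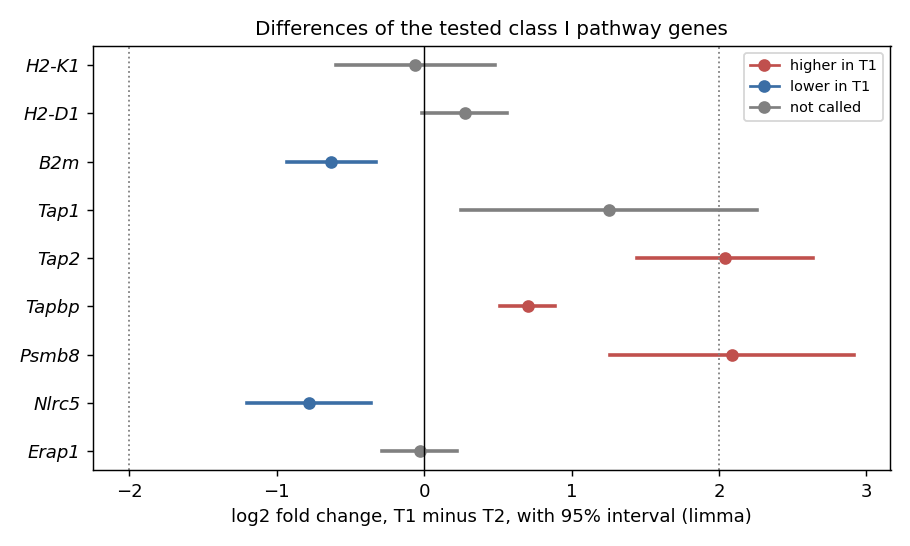
Log2 fold change of the 9 tested genes, T1 minus T2, as points with 95% intervals from limma, red where higher in T1, blue where lower and grey where not called, with dotted lines at 2 and -2. Tap2 at 2.04 and Psmb8 at 2.09 lie just past the dotted line with intervals that cross it, B2m and Nlrc5 lie below 0, and the interval of H2-K1 spans 0.

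Other factors that act on these genes were called in both directions. Of 27 tested genes of class I transcription and interferon gamma signalling, 7 were higher and 10 lower in T1, with a median of 0.03. Over all genes tested, 25.1% were higher and 24.4% lower. Irf1, an interferon-induced activator, had 1007, 799 and 773 normalized counts in T1 and 361, 418 and 343 in T2 (log2 fold change 1.19, adjusted p = 2.39e-05). Stat2 was higher at 1.98 (adjusted p = 2.43e-06). Rfx5, a subunit of the complex through which Nlrc5 binds, was not called at -0.10 (adjusted p = 0.486). The largest differences were in the other direction. Irf8, a factor best known from myeloid cells, had 57.1, 33.5 and 54.7 normalized counts in T1 and 988, 711 and 777 in T2 (log2 fold change -4.09, adjusted p = 1.47e-07). Jak2, a kinase of the interferon gamma receptor, had 644, 520 and 688 in T1 and 5179, 5309 and 6107 in T2 (-3.17, adjusted p = 1.08e-08), and both genes separated the populations by a wide margin. Of 15 tested genes known to restrain surface class I or its genes, 4 were higher and 4 lower, near the shares over all genes. Among them Traf3 (0.76) and Susd6 (0.77) were higher, and Tmem127, a partner of Susd6 in class I turnover, was lower (-0.75).

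Interferon targets outside antigen presentation were examined as well. Of 34 listed, 20 were tested, 11 were higher and 1 lower in T1, and 10 of the 11 passed the stricter rule. These counts depend on the level filter, since 6 of the 20 had a T2 mean under 10 and passed through T1, and 1, Gbp7, passed through T2. Of the 13 with a mean of at least 10 in both populations, 6 were higher and 0 lower, and a minimum of 50 also gave 6 higher and 0 lower. Of all genes tested, 25.1% were called higher, and the list was chosen with results of these libraries known. Genes named next as higher in T1 were picked by the size of their difference and add nothing to these counts. Oas1a, an antiviral enzyme, passed the filter through T1 alone. It had 21.2, 35.3 and 76.1 normalized counts in T1 and 0.979, 2.05 and 0.928 in T2 (log2 fold change 4.13, adjusted p = 4.95e-05). Cxcl10, a chemokine that draws T cells, was higher at 4.83, Oasl2 at 4.12 and Ifit1 at 3.88, and the guanylate-binding protein Gbp7 was lower at -1.73, a call lost without T1 replicate 1, T1 replicate 2, T2 replicate 1 or T2 replicate 3. Rsad2 had no read in any T2 library and at most 35.1 normalized counts in T1.

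The remaining class I heavy chains of the H2 region were mostly low. Of 8 tested, 2 were called, both lower in T1, beside 24.4% lower and 25.1% higher over all genes tested. H2-M3, which presents formylated peptides, had 145, 136 and 261 normalized counts in T1 and 386, 353 and 457 in T2 (log2 fold change -1.20, adjusted p = 0.00113). H2-T10 was lower at -1.55 (adjusted p = 0.000693), but 16% of its 75-base stretches also occur in other genes, mostly H2-T22, so its value is uncertain. H2-Q4 was not called at 0.36 (adjusted p = 0.0265), nor was H2-T23, which encodes the nonclassical Qa-1 chain, at -0.72 (adjusted p = 0.0168). H2-K2 had 11.6, 11.2 and 9.76 normalized counts in T1 and 2.94, 0 and 0.928 in T2 and was too low to be tested, and H2-Q6 and H2-Q8 shared a row that was not called. Of 12 listed class I-like genes outside the region, 6 were tested, 4 were lower and 1 higher in T1, beside 24.4% and 25.1% of all genes, and 2 were lower with a minimum of 50. Ulbp1, a ligand of the NKG2D receptor of natural killer cells, had 212, 268 and 226 normalized counts in T1 and 873, 1004 and 847 in T2 (log2 fold change -1.95, adjusted p = 5.81e-07). Fcgrt, the neonatal Fc receptor, was lower at -3.55 and passed the filter through T2 (mean 63.6, and 4.29 in T1), and Cd1d1, a lipid-presenting molecule, was lower at -1.67, while Procr, the protein C receptor, was higher at 1.66. Hfe was also called lower, at -1.45 (adjusted p = 0.00191 by limma). Fcgrt and Cd1d1 pair with beta 2-microglobulin, as the classical heavy chains do, and a link to the B2m difference was not tested.

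MHC class II was close to absent. Of 11 listed genes, 8 had no read in any library, among them H2-Aa, H2-Ab1 and H2-Eb1, and the class II activator Ciita reached at most 4.90 normalized counts. Cd74, the invariant chain, was higher in T1 at 1.27 (adjusted p = 0.00912), a call lost with edgeR, with DESeq2, with no filter, with the replicate block and when any library but T2 replicate 3 was left out, and it was not tested with a minimum of 50. H2-DMa, part of a class II loading factor, was lower at -1.13 (adjusted p = 0.000577).

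Of the 10 members, 7 lie within the 3.36 Mb of chromosome 17 from Tapbp to H2-M3, and Tap1, Psmb8 and Tap2 lie side by side there. The neighbourhood as a whole did not share their direction. Without members and other class I heavy chains, 84 genes of this interval were tested, of which 11 (13.1%) were higher and 17 (20.2%) lower in T1, with a median of -0.04, and over all 578 tested genes of chromosome 17 the shares were 17.3% and 22.7%. H2-DMa, the tested gene just before Tap1, was lower. Gpsm3, the next tested gene after Tap2, was also lower, at -1.98 (adjusted p = 4.13e-05), but lies far from it. Gene midpoints lay 129 kb from the H2-K1 start for H2-DMa, 192 for Tap1, 210 for Tap2 and 590 for Gpsm3. Both flanking genes were named after their values were seen.

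**Figure D4:**
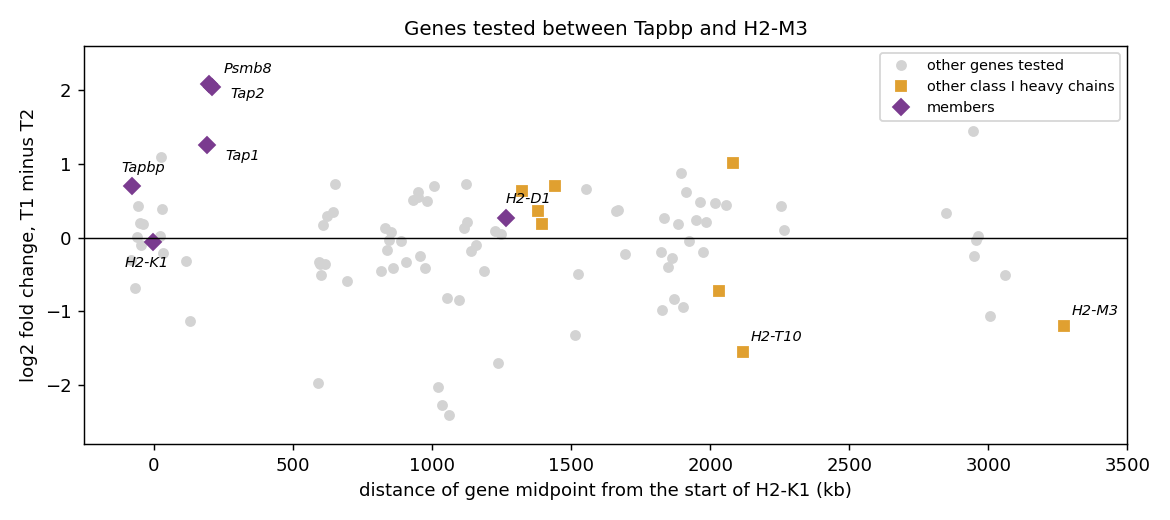
Log2 fold change, T1 minus T2, of the 98 tested genes between Tapbp and H2-M3 by the distance of each gene's midpoint from the start of H2-K1 in kb, with members as purple diamonds, other class I heavy chains as orange squares and other genes in grey. Psmb8 and Tap2, at 199 and 210 kb, have the highest values of the region with Tap1 beside them, H2-K1 lies at the zero line, and H2-T10 and H2-M3 lie below -1.

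Levels ranked alike in both populations at the top and differed below. Per kilobase of exonic length, the T1 means were 6742 for B2m, 1352 for H2-D1, 513 for Tapbp, 78.3 for Erap1, 61.5 for Tap2, 40.5 for Psmb8, 25.4 for H2-K1, 20.3 for Nlrc5, 13.5 for Tap1 and 1.80 for Psmb9. In T2 the order was B2m (10503), H2-D1 (1128), Tapbp (316), Erap1 (80.1), Nlrc5 (34.5), H2-K1 (26.9), Tap2 (14.1), Psmb8 (9.20), Tap1 (6.06) and Psmb9 (0.437). Among the T1 libraries the ranges of neighbours overlapped from Erap1 to Tap2, Tap2 to Psmb8, Psmb8 to H2-K1, H2-K1 to Nlrc5 and Nlrc5 to Tap1. Among the T2 libraries they overlapped from Nlrc5 to H2-K1, Tap2 to Psmb8 and Psmb8 to Tap1. B2m stood at the 99.3 percentile of all genes tested in T1 and at 99.6 in T2, and H2-K1 at 17.4 and 17.3. The levels and ranks of the heavy chains carry the alignment limit given above.

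Within each population the members varied together to some degree. T1 replicate 3 was the highest T1 library for 8 of the 10 members, the exceptions being Tapbp and Erap1, compared with 41.6% of all genes tested. T2 replicate 3 was the highest T2 library for 8 of the 10, the exceptions being H2-K1 and Psmb9, compared with 35.1%, and T2 replicate 2 was the lowest for 7 of the 10, compared with 37.2%. In T1 the step was largest for Tap2, Tap1 and Psmb8, where replicate 3 was 1.95, 1.91 and 1.88 times the mean of the other two libraries. In T2, replicate 3 was 3.90 times replicate 2 for Tap1 and 2.20 times for Psmb8. Of 20 tested interferon targets, T1 replicate 3 was the highest T1 library in 12 and T2 replicate 3 the highest T2 library in 10. Without replicate 3 of either population, a setting added after this was seen, Tap2 (1.83), Psmb8 (2.11), B2m (-0.59) and Nlrc5 (-0.87) were still called, and H2-D1 was also called at 0.35 (adjusted p = 0.00478).

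**Figure D5:**
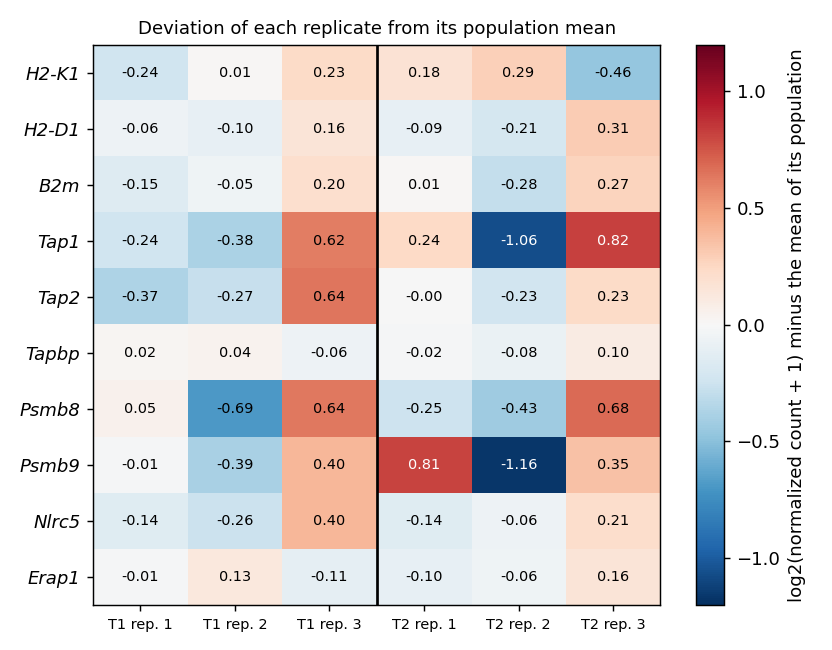
Deviation of each library from the mean of its own population, on the log2(normalized count + 1) scale, for the 10 genes (rows) in the 3 T1 and the 3 T2 libraries (columns), red above and blue below the mean, with the value in each cell. Replicate 3 is red for most genes in both populations, up to 0.64 for Tap2 in T1 and 0.82 for Tap1 in T2, and Tapbp deviates by at most 0.10.

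The genes whose centred log2 values over the 6 libraries lay nearest to those of H2-K1 were Cdk5r1 (Euclidean distance 0.21), Prkcz (0.31), Gtpbp6 (0.31), Lemd2 (0.31) and Mical3 (0.32). For Tap1 they were Fbxo24 (0.60), Capn5 (0.66), Mrpl23 (0.68), Ell3 (0.75) and F13a1 (0.79). Lemd2 lies on chromosome 17 and the other genes named here on other chromosomes. Several members overlap other genes. The overlaps are of whole gene spans, introns included, and no strand setting was given. Whether counted reads are shared with the partners was not tested. B2m lies within the span of Patl2 on the opposite strand, which had at most 4.90 normalized counts. Erap1 overlaps Cast over 834 bases (2237 to 2907 normalized counts), and Tap1 overlaps Psmb9 over 212 bases. Tap2 overlaps Gm15821 over 3148 bases and Gm20496 over 1923, and Psmb8 overlaps Gm20496 over 2139. Both partners lie on the opposite strand and have no row, so their level is not known.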

How the data were processed

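RNA of T1 and T2 cells, 3 libraries each, was sequenced by the authors as paired 150-base reads from a poly(A) TruSeq preparation, trimmed with Trimmomatic, aligned to mm10 with TopHat2, counted per gene with HTSeq and scaled with the median-of-ratios size factors of DESeq2. The annotation, the strand setting and the versions are not given in the sources used here. The deposited values, a signal on the scale of normalized counts, were divided by the value of 1 read, which gave whole reads for all values within 0.1 read. Names were matched to GENCODE genes of GRCm38 by symbol (23105) or synonym (499) out of 24129, and 27 names had been turned into dates by a spreadsheet. Libraries of the parental 4T1GFP line were not analysed here.

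Differences are T1 minus T2. log2(normalized count + 1) was fitted with limma 3.58.1 (R 4.3.3, mean-variance trend, Benjamini-Hochberg adjustment) for genes with a mean of at least 10. Alternatives were other pseudocounts (0.5 and 5), no filter or a minimum of 50, quantile normalization, TMM scaling, no trend, a replicate block, edgeR 4.0.16 and DESeq2 1.42.0 on recovered reads, and leaving out libraries. Ratios within libraries were compared with exact permutation tests. The script was tested on simulated data.

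The members and lists were chosen with earlier results of these data known. Named genes were the members, Irf1, Rfx5, Ciita and a gene that is not reported here, the partners in ratios, up to 4 genes per list with the largest called differences, and the 5 genes nearest to H2-K1 and Tap1. A few others were named after their values were seen (H2-DMa and Gpsm3 as the nearest tested genes outside the transporter genes, H2-T23, H2-Q4, H2-K2, Hfe, Gbp7, Rsad2, and markers). Exonic lengths are unions of annotated exons. Intervals from reads cover counting error only.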

Additional observations from a re-analysis of the deposited data

How the results depend on the processing

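Over 18 settings, the calls of Tap2, Tapbp and Psmb8 held in 18, that of B2m in 14 and that of Nlrc5 in 12, all with unchanged direction. H2-K1 and Erap1 were called in 0, Tap1 in 1 and H2-D1 in 2. Without the variance trend, B2m (-0.63, adjusted p = 0.0165) and Nlrc5 (-0.78, adjusted p = 0.0131) lost their calls, which left 0 members lower in T1. With a pseudocount of 5, 0 members passed both the p and the fold rule. Without replicate 3 of T1 and of T2, 1 member did (Psmb8), H2-D1 passed at 0.35 and Erap1 turned to 0.10, uncalled. Leaving out 1 library at a time gave 0 to 2 members lower, 0 to 2 past both rules, and log2 fold changes of -0.29 to 0.084 for H2-K1, 0.17 to 0.43 for H2-D1, -0.77 to -0.49 for B2m, -0.98 to -0.65 for Nlrc5 and -0.095 to 0.046 for Erap1. The cause was not tested. It was not settled whether replicate numbers pair the libraries. Deviations of same-numbered libraries correlated at 0.06, 0.17 and 0.10, and those of other pairs at -0.15 to 0.07. T2 replicate 1 correlated best with T1 replicate 3. With the replicate block, Tap1 passed at 1.25 (adjusted p = 0.00306) and no other member's call changed. Over all results and settings, list counts included, 745 values kept their direction and their side of the threshold, 52 counts moved by over 1.5 times, 15 lost and 3 gained a call, and 6 uncalled values changed sign.

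With 3 libraries a group, exact tests cannot go below 0.1. Psmb9, at most 9 reads in a library, is limited by depth.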
